A study of Mus musculus with 12 samples.

Results

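The oxidative phosphorylation system of the mitochondrial inner membrane is built from proteins encoded in the nucleus and a few encoded in mitochondrial DNA. Its nuclear genes were described here in primary mouse cerebrocortical cells kept without or given triiodothyronine (T3), which is the active form of thyroid hormone. Members were chosen by gene symbol: the Ndufa, Ndufb, Ndufc, Ndufs and Ndufv genes, Sdha to Sdhd, the Uqcr genes, the Cox4 to Cox8 genes, the Atp5 genes, Cyc1 and Cycs. Annotated pseudogenes were left out, and 6 listed ones met the symbol rule (Uqcrh-ps1, Uqcrh-ps2, Cox6c2, Ndufa11b, Atp5k-ps2 and Ndufs6b). This gave 79 members of 14801 genes listed: 36 of complex I, 4 of complex II, 9 of complex III, 13 of complex IV, 16 of complex V, and Cycs. All 79 passed the filter on low reads, which left 13663 genes for the test. Atp5g2, Cox4i2, Cox7a1, Cox7b2, Cox8b, Cox8c and Ndufa4l2 also meet the rule and were not analysed here.

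Complexes I and II pass electrons from NADH and succinate to ubiquinone, complex III passes them on to cytochrome c, and complex IV passes them to oxygen. Complexes I, III and IV pump protons out of the matrix, and complex V, the ATP synthase, lets them return while it makes ATP. Neurons depend on this system for the energy that signalling takes, and thyroid hormone has long been known as a regulator of respiration in many tissues.

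All libraries came from fetuses labelled wild type, taken on gestational day 17.5, and no other allele is named for either group. Dissociated cortical cells grew for 9 days and spent 24 h without the B27 supplement, in both groups. Then 6 cultures received 10 nM T3 for 24 h and 6 were kept in parallel without it. Each of 6 fetuses, called mouse 1 to 6 here, gave 1 culture of each kind, so the comparison is paired by design. Sexes are not given in the labels.

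Libraries held 5272092 to 8136928 reads on the listed genes without T3 and 7460586 to 10837895 with T3. Within each mouse the culture with T3 had more such reads, by 1.03 to 1.67 times. Hr and Klf9, which are known T3 targets, were 3.00 and 1.46 higher on the log2 scale in the cultures labelled T3 (limma adjusted p = 3.47e-14 and 4.03e-11). Of the cell type markers listed here, the summed level of 10 neuronal genes was 7314 to 9182 CPM (reads of a gene scaled to library size, the deposited unit) without T3 and 6870 to 8286 with T3, and it was higher with T3 in 1 of 6 mice. Single neuronal genes went both ways: 5 of 10 had a log2 change above 0, and Rbfox3 (0.27, adjusted p = 0.0101) and Nefl (0.32, adjusted p = 0.00291) rose, in 6 of 6 mice each. The sum over 8 astrocyte genes went from 812.8 to 2741 CPM without T3 and from 1229 to 3205 with T3 and was higher with T3 in 6 of 6 mice. Of the 7 astrocyte genes tested, 7 had a log2 change above 0 and 4 were called higher, with a median of 0.29. The sum over 10 genes of the oligodendrocyte lineage was higher in 6 of 6 mice too (351 to 504.4 CPM without T3, 453.3 to 567.8 with T3). Of the 9 tested, 7 had a log2 change above 0 and 3 were called higher. The myelin genes Mbp (-0.11) and Mog (-0.35) were below 0, each higher with T3 in 1 of 6 mice, and neither was called. The sum over 7 genes of progenitors and dividing cells was higher with T3 in 2 of 6 mice, with 0 of the genes called. Single genes of this list went both ways: 4 of 7 had a log2 change above 0, and the median was 0.10. Mki67 was at -0.79 (adjusted p = 0.257), lower in 6 of 6 mice. Without T3, mouse 4 reached 70.1 CPM for Mki67, while every other culture had at most 30.9 CPM. Microglial genes (4 listed) summed to 2.64 to 8.16 CPM and endothelial genes (3 listed) to 5.86 to 32.1 CPM. The part of these shifts in the results below was not tested, and in bulk samples fewer cells of a type and less RNA per cell cannot be told apart. The no-T3 library of mouse 4 stood apart: Myh6, Myh7 and Ttn, the 3 listed of 14 heart muscle genes, summed to 1213 CPM there and to at most 6.88 CPM in any other library, and 7 genes of mural cells and fibroblasts summed to 439.6 CPM against at most 165 CPM. The latter sum was higher with T3 in 1 of 6 mice, and Dcn fell (-0.47, adjusted p = 0.00806, lower in 6 of 6 mice). Results are therefore also given without mouse 4.

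The nuclear respiratory chain genes stood slightly higher with T3, by a small step that most members shared and that few passed as single genes. Of the 79 members, 73 had a log2 change (T3 minus no T3) above 0, where 51.1% of all genes tested did and 86.1% of 36 proteasome genes. The median log2 change of the members was 0.10, or 7.37%, and that of all genes was 0.00. In the limma test with the mouse as a block, 3 members rose (Ndufa5, Cox5a and Ndufa1) and 0 fell at an adjusted p under 0.05. Among all genes tested 3.37% were called higher and 2.14% lower, so the share of members called is near the background. At an unadjusted p under 0.05 there were 24 members, all of them higher, and 21 of these did not pass after adjustment. Among all 13663 genes 2388 had an unadjusted p under 0.05, of which 1323 were higher. Without mouse 4, 77 of the 79 members had a change above 0, the median was 0.13, and Ndufa5 and Cox6c were called higher, as 2.49% of all genes were.

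**Figure D1:**
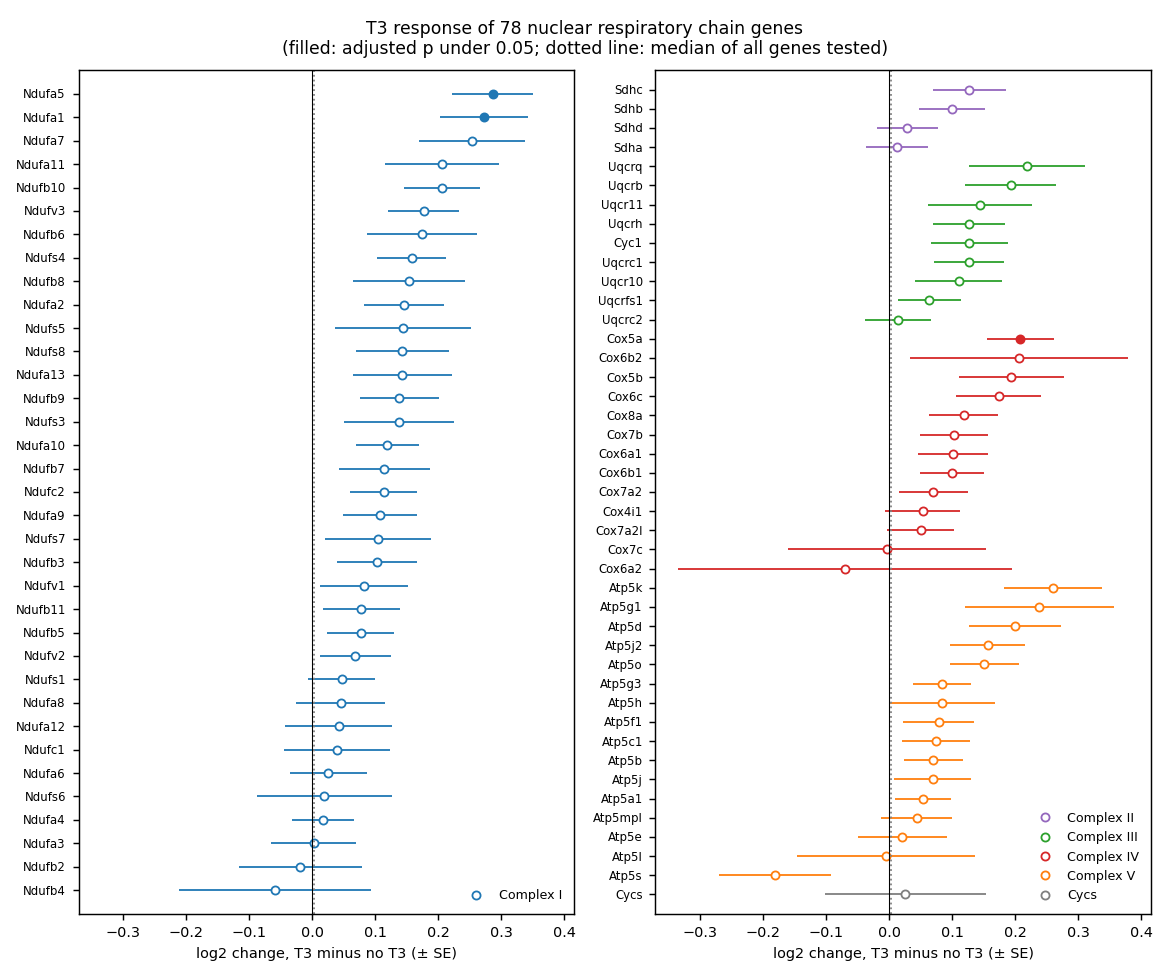
Log2 change with T3 (x axis, T3 minus no T3, point ± SE of the limma fit, 6 mice) for 78 of the 79 members, complex I on the left and the others on the right, with filled points for an adjusted p under 0.05 and a dotted line at the median of all genes tested. The 78 points run from -0.18 (Atp5s) to 0.29 (Ndufa5), 72 of them lie above 0, and 3 are filled.

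Members were measured at very different levels. Per kilobase of the longest principal transcript, the mean level without T3 was highest for the ATP synthase genes Atp5b (633 CPM per kb), Atp5a1 (444.3) and Atp5g3 (386.1), followed by Ndufa4 (380.7) and Cox4i1 (342.9). It was lowest for Cycs (1.73), Atp5g1 (2.44), Ndufb4 (3.15), Cox6a2 (3.83), Ndufb2 (4.09) and Cox6b2 (4.37). The transcripts taken for Atp5g1, Ndufb2 and Cycs are 4715, 4371 and 3123 bases long, so their places rest in part on that choice. Several low members share sequence with processed pseudogenes, so that a read of 75 bases need not have a single origin. Of all 75-base windows of the transcript taken for the gene, 76.0% for Atp5l, 50.4% for Cox7c, 36.5% for Atp5h, 35.2% for Ndufb4 and 26.1% for Cycs also occur in a transcript of another gene. In all, 35 members share at least 1 window and 16 share over 20%. The other gene can be an overlapping neighbour and not a pseudogene, as for Cox5a (Gm26631) and Uqcrc2 (Pdzd9). The sources used here do not say how the deposited counts treated reads of shared windows. The levels of members with shared windows are therefore uncertain. Exons of 11 members overlap another gene over more than 10% of their length, and the library kit does not mark strand, so reads of overlapping genes on opposite strands cannot be told apart. Among the 39 members with under 1% of shared windows and under 1% of overlap, 38 had a change above 0, with a median of 0.10, and 2 were called. At least 100 reads were found in every library for 65 of the 79 members.

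**Figure D2:**
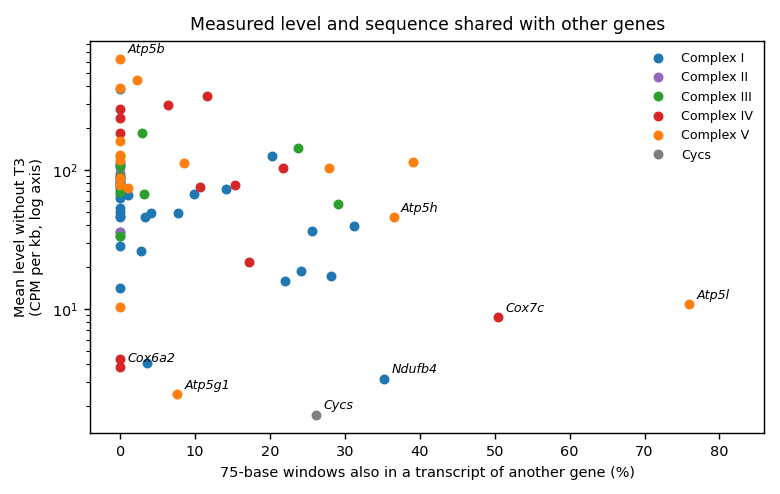
Mean level without T3 (y axis, CPM per kb of transcript, log axis) against the share of the 75-base windows of a member's transcript that also occur in a transcript of another gene (x axis, %), 1 point per member, coloured by complex. Atp5l (76.0%), Cox7c (50.4%), Ndufb4 (35.2%) and Cycs (26.1%) combine shared windows with low levels, while Cox6a2 is low with no shared window.

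In complex I, the NADH dehydrogenase, 34 of 36 members had a change above 0, with a median of 0.11, and Ndufa5 and Ndufa1 rose. Both are accessory subunits, which surround the core that carries out catalysis.

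Ndufa5 (ENSMUSG00000023089), an accessory subunit of the matrix arm, lies on chromosome 6 from 24518666 to 24528013 of GRCm38, on the minus strand. Its level without T3 was 40.4 at the lowest, 40.9 at the median and 41.9 at the highest, and with T3 these were 45.5, 49.0 and 59.3 (TMM-normalized CPM, used below unless another unit is named). Every T3 culture lay above every culture without T3, and mouse 6 had the highest T3 value. Ndufa5 was the only member whose groups did not overlap, as 1.05% of all genes tested did in the same direction and 0.622% in the other. The mean went from 41.1 ± 0.63 to 50.4 ± 4.96 (SD, n = 6), a log2 change of 0.29 (SE 0.064, 95% confidence interval 0.15 to 0.42, limma adjusted p = 0.00877), higher in 6 of 6 mice. The coefficient of variation without T3 was 1.52%, below the 5.94% that counting error alone gives at its 226 to 318 reads per library without T3. Without mouse 6 the log2 change was 0.24 and the call was lost (adjusted p = 0.0521).

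Ndufa1 (ENSMUSG00000016427), a small membrane-spanning accessory subunit, lies on the X chromosome from 37187588 to 37191163, on the minus strand. Its values ran from 31.6 through a median of 37.0 to 43.2 without T3, and from 36.6 through 46.3 to 49.6 with T3. The groups overlapped, since mouse 1 changed little (35.9 to 36.6) and its T3 value lay below the no-T3 values of 4 other mice. The mean went from 37.3 ± 3.82 to 45.2 ± 4.69 (SD, n = 6), a log2 change of 0.27 (SE 0.070, interval 0.13 to 0.42, limma adjusted p = 0.0239), higher in 6 of 6 mice. The call was lost without mouse 2, 4, 5 or 6 (adjusted p = 0.0655, 0.073, 0.0908 and 0.0927). It was also lost without the mouse as a block (0.169) and with DESeq2 (0.079).

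Just outside the threshold stood Ndufb10, an accessory subunit of the membrane arm, with a log2 change of 0.21 (adjusted p = 0.0503). Its lowest, median and highest values were 50.1, 60.1 and 65.9 without T3 and 60.9, 69.7 and 74.5 with T3, higher in 6 of 6 mice although the groups overlapped. Ndufv3, a small subunit of the NADH-binding module, was at 0.18 (adjusted p = 0.078) and Ndufa7 at 0.25 (adjusted p = 0.0954). Ndufs1, the core subunit with the most iron-sulfur clusters, stood at 129.7 ± 6.19 without T3 and 134.1 ± 7.17 with T3 (SD, n = 6; log2 change 0.05, interval -0.06 to 0.16). Ndufv1, which binds NADH, stood at 82.3 ± 8.90 and 87.0 ± 8.56 (0.08, interval -0.06 to 0.23). Ndufa4 is placed here by its symbol and is today counted as a subunit of complex IV. It stood at 232.2 ± 14.7 and 235.2 ± 19.5 (0.02, interval -0.09 to 0.12). The lowest change in complex I was that of Ndufb4 (-0.06, interval -0.38 to 0.26), which had as few as 17 reads in a library.

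Complex II, succinate dehydrogenase, is the only one of the 5 with all its subunits encoded in the nucleus. Its 4 members were above 0 with a median of 0.06, and none passed. Sdha, the flavoprotein that oxidizes succinate, ran from 263.1 through 270.2 to 304.5 without T3 and from 271.3 through 274.7 to 293.8 with T3. The ranges overlapped widely, and the highest value of all was that of mouse 4 without T3. The log2 change was 0.01 (SE 0.049, interval -0.09 to 0.12, adjusted p = 0.933), the smallest of the complex. Sdhb, the iron-sulfur subunit, was at 0.10 (interval -0.01 to 0.21). The membrane anchor Sdhc had the largest change of the complex, from 113.5 ± 6.31 to 124.1 ± 8.90 (SD, n = 6; 0.13, adjusted p = 0.254), and was higher in 6 of 6 mice.

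Complex III, which hands electrons from ubiquinol to cytochrome c, had a median of 0.13, with 9 of 9 members above 0 and none called. The median was 0.07 with the GC correction and 0.05 with the length and GC corrections together, so its place among the complexes is not fixed. Uqcrq, a small subunit, had its largest change: values ran from 44.1 through 52.9 to 56.2 without T3 and from 45.8 through 64.3 to 70.7 with T3. It was higher with T3 in 4 of 6 mice and lower in mice 1 and 2, so the groups overlapped (0.22, SE 0.092, adjusted p = 0.221). Uqcrc1, a core protein of the complex, went from 175.3 ± 8.77 to 191.9 ± 18.8 (0.13, adjusted p = 0.236), and Cyc1, the cytochrome subunit that reduces cytochrome c, from 104.8 ± 8.85 to 114.6 ± 10.7 (0.13, adjusted p = 0.289). Uqcrfs1, the Rieske iron-sulfur protein, was at 0.06 (interval -0.04 to 0.17). Uqcrc2, the other core protein, was at 0.01 (interval -0.09 to 0.12), and 19.7% of its exon bases overlap Pdzd9. Cycs, cytochrome c itself, stood at 5.42 ± 0.672 and 5.52 ± 0.628 (0.03, interval -0.24 to 0.29), a level that its shared windows make uncertain.

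In complex IV, cytochrome c oxidase, 11 of 13 members were above 0 with a median of 0.10 and Cox5a rose. Cox5a (ENSMUSG00000000088), a subunit on the matrix side, lies on chromosome 9 from 57521274 to 57532426, on the plus strand. Its lowest, median and highest values were 59.9, 68.3 and 69.5 without T3 and 68.2, 79.2 and 81.8 with T3. Only mouse 1 had a T3 value within the range of the cultures without T3, and it had the lowest value in each group. The mean went from 67.0 ± 3.65 to 77.6 ± 5.19 (SD, n = 6), a log2 change of 0.21 (SE 0.053, interval 0.10 to 0.32, limma adjusted p = 0.0231), higher in 6 of 6 mice. The antisense gene Gm26631 overlaps 12.8% of the summed Cox5a exons. Of the 75-base windows of the 1 Cox5a transcript taken here, 21.7% also occur in it. The call was lost without mouse 2, 3, 4 or 6 (adjusted p = 0.0588, 0.0972, 0.0774 and 0.064). It was also lost without the block (0.131), with DESeq2 (0.0711) and with a correction for exon length (0.0718).

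Several subunits of complex IV come in tissue forms. Cox4i1, the ubiquitous form of the regulatory subunit, stood at 262.3 ± 19.8 and 272.9 ± 29.2 (0.05, interval -0.07 to 0.18). Cox6a1 went from 168.0 ± 13.1 to 180.4 ± 15.7 (0.10, adjusted p = 0.376). Its heart and skeletal muscle counterpart Cox6a2 was at 0.642 to 2.12 in 5 of the cultures without T3, at 9.09 in that of mouse 4, and at 1.17 to 2.40 with T3. The high value thus lay in the library with heart muscle transcripts. Itgad overlaps 10.3% of the Cox6a2 exons on the other strand. The log2 change of Cox6a2 was -0.07 with all mice and 0.26 without mouse 4 (adjusted p = 0.935 and 0.635), so its direction rests on that mouse. Cox6b1 was at 169.0 ± 9.65 and 181.3 ± 13.2, and its testis form Cox6b2 at 2.56 ± 1.01 and 2.99 ± 0.915, and neither passed (adjusted p = 0.328 and 0.613). Cox7a2, its relative Cox7a2l, which takes part in joining complexes into supercomplexes, and Cox8a were at 0.07, 0.05 and 0.12 (adjusted p = 0.577, 0.700 and 0.259).

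Complex V had 14 of 16 members above 0, a median of 0.08 and none called. Atp5b, the catalytic subunit and the most abundant member, ran from 1100 through 1204 to 1356 without T3 and from 1170 through 1240 to 1433 with T3. The groups overlapped, and mouse 4 was the only one in which the value was lower with T3 (1356 to 1238). The mean went from 1213 ± 92.6 to 1273 ± 91.8 (SD, n = 6; 0.07, SE 0.047, interval -0.03 to 0.17, adjusted p = 0.491). Among the 3 genes known for the same mature ring subunit, Atp5g3 stood at 279.1 ± 13.2 and 295.9 ± 12.3, Atp5g1 at 11.5 ± 2.44 and 14.0 ± 4.45, and Atp5g2 was not analysed here. Neither of the 2 passed (adjusted p = 0.374 and 0.306).

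The largest and smallest changes of all members outside complex I were in complex V. Atp5k, a membrane subunit that helps ATP synthase form dimers, ran from 30.1 through 31.8 to 35.5 without T3 and from 32.7 through 39.3 to 46.8 with T3. It was higher in 5 of 6 mice and lower in mouse 1, with overlapping groups (0.26, SE 0.078, interval 0.10 to 0.42, adjusted p = 0.0569). It passed with edgeR (adjusted p = 0.0491), limma-voom (0.0493) and a correction for GC content (0.0309), and without mouse 1 (0.00619). Atp5s, named as a coupling factor of the synthase, was the only member lower in 6 of 6 mice, as 4.98% of all genes were. Its values ran from 14.9 through 16.4 to 18.6 without T3 and from 11.5 through 15.7 to 17.2 with T3 (-0.18, SE 0.088, interval -0.37 to 0.00, adjusted p = 0.298).

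**Figure D3:**
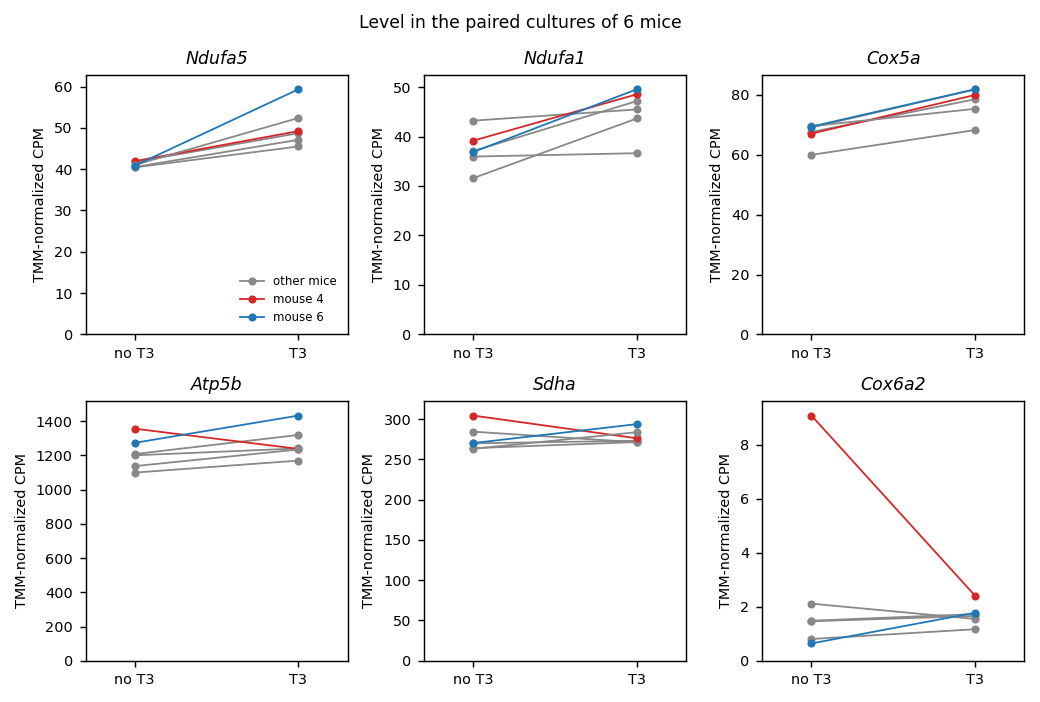
Level (y axis, TMM-normalized CPM, from 0) of 6 members without and with T3 (x axis), a line for each of the 6 mice with mouse 4 in red and mouse 6 in blue. For Ndufa5 every T3 value (45.5 to 59.3) lies above every value without T3 (40.4 to 41.9), Ndufa1 and Cox5a rose in 6 of 6 mice with overlapping groups, and Cox6a2 stands at 9.09 in the no-T3 culture of mouse 4 alone.

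The size of the shared step differed between the mice. The median member difference (log2, T3 minus no T3) was 0.03 in mouse 1, 0.07 in mouse 2, 0.14 in mouse 3, -0.04 in mouse 4, 0.17 in mouse 5 and 0.24 in mouse 6. The number of members above 0 was 43, 55, 67, 35, 64 and 72 of 79 in the same order. Of all genes tested, 48.6% (mouse 2) to 54.4% (mouse 4) were above 0. Members higher in 6 of 6 mice were 8: Ndufa1, Ndufa5, Ndufa10, Ndufb10, Ndufv3, Sdhc, Cox5a and Atp5j2, and 5.79% of all genes tested were higher in 6 of 6. Another 27 were higher in 5 of 6, and in 13 of these mouse 4 was the exception. The medians by complex in mouse 4 were 0.04 for complex I, -0.06 for complex II, 0.06 for complex III, -0.06 for complex IV and -0.12 for complex V. In mouse 6 they were 0.20, 0.12, 0.33, 0.29 and 0.24, and in mouse 1 they were -0.05, 0.03, 0.05, 0.06 and 0.03.

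Mice 4 and 6 contributed through 1 library each. The no-T3 library of mouse 4 had the highest no-T3 value for 45 of 79 members (12 of 16 in complex V), where 16.4% of all genes tested had theirs in it. The T3 library of mouse 6 had the highest T3 value for 45 of 79 members, where 20.6% of all genes did. The members together took 0.845% ± 0.0483 of the reads on listed genes without T3 and 0.898% ± 0.0410 with T3 (SD, n = 6), a share that was higher with T3 in 5 mice and lower in mouse 4 (0.941% to 0.887%). The no-T3 library of mouse 4 also has the fewest reads on listed genes (5272092) and is the one with heart muscle transcripts, whose part in the level of the members was not tested. Without mouse 6, 67 of 79 members had a change above 0, the median was 0.08, and none was called, while 2.4% of all genes were called higher. Medians by complex without mouse 4 were 0.13, 0.09, 0.16, 0.14 and 0.11 for complexes I to V.

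**Figure D4:**
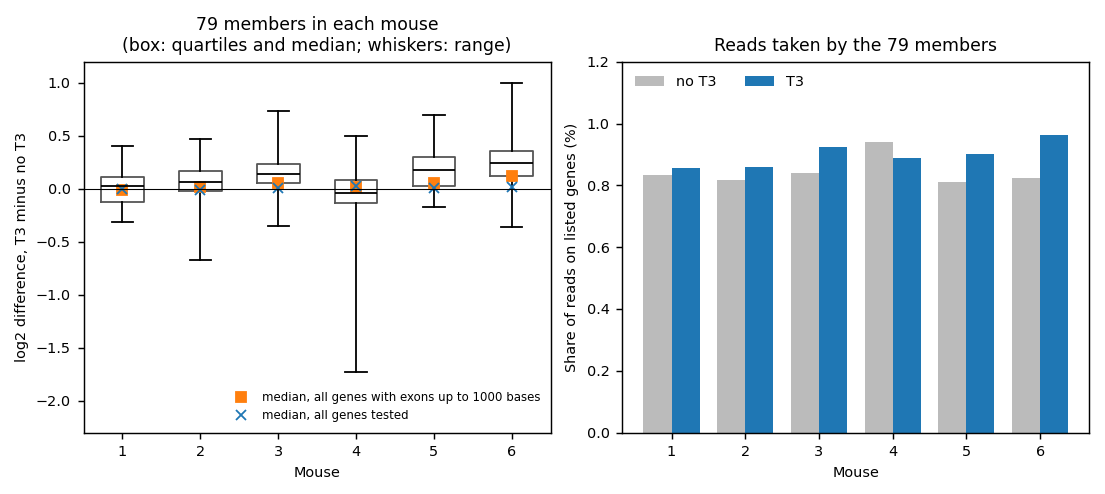
Left, the log2 differences (T3 minus no T3) of the 79 members in each mouse as boxes (quartiles and median, whiskers to the range), with squares for the median of all genes whose exons sum to at most 1000 bases and crosses for the median of all genes tested. Right, the share of reads on the members (y axis, %) in both cultures of each mouse, which was lower with T3 in mouse 4 alone (0.941% to 0.887%).

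Members are mostly short genes, and short genes in general stood higher in the T3 libraries. The median summed exon length was 1718 bases for the members and 4486 for all genes tested. Among all genes the median log2 change was 0.04 for exons up to 1000 bases, 0.04 from 1000 to 2000, 0.02 from 2000 to 4000 and -0.01 above 4000. The members in those 4 classes (18, 30, 21 and 10) had medians of 0.11, 0.09, 0.11 and 0.07. The median of all genes up to 1000 bases was -0.01, 0.01, 0.05, 0.01, 0.06 and 0.13 in mice 1 to 6. Like that of the members it was highest in mouse 6, but in mouse 4 it was above 0 where the members' median was below. After a correction for exon length, 65 of 79 members had a change above 0 with a median of 0.07, and Ndufa1 and Ndufa5 were called higher, as 3.44% of all genes were. Genes of other large protein complexes also had changes mostly above 0. They were above 0 for 31 of 36 proteasome genes (86.1%, median 0.05, 0 called), 53 of 74 mitochondrial ribosomal protein genes (71.6%, median 0.04, 0 called) and 60 of 84 cytosolic ribosomal protein genes (71.4%, median 0.04, 0 called higher and 2 lower). Among all genes with exons up to 2000 bases and at least 20 CPM without T3, 67.6% of 720 were above 0, with a median of 0.04. The differences between these families and the respiratory chain were not tested.

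**Figure D5:**
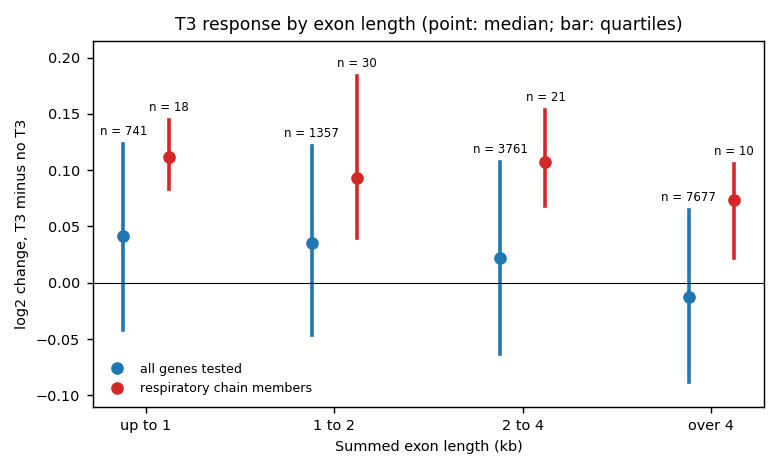
Median (point) and quartiles (bar) of the log2 change with T3 (y axis) by summed exon length (x axis, kb) for all genes tested (blue) and the members (red), with the number of genes over each bar. The members' medians lie between 0.07 and 0.11 in the 4 classes, and those of all genes between -0.01 and 0.04.

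The mitochondrial genome encodes the other subunits of complexes I, III, IV and V. Of its 13 protein genes 7 were tested, and 0 were called in either direction. Their log2 changes lay between -0.01 and 0.08. The catalytic oxidase subunit mt-Co1 stood at 8795 ± 755.4 without T3 and 8805 ± 734.8 with T3 (SD, n = 6; 0.00, interval -0.10 to 0.11). The mitochondrially encoded transcripts that are listed, with 7 of the 13 protein genes among them, took 3.04% ± 0.172 of the reads on listed genes without T3. With T3 they took 3.07% ± 0.275.

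Genes around the respiratory chain were taken from lists. Among all genes tested 3.37% were called higher. Of 45 tested assembly factors 1 rose and 0 fell, and 36 had a log2 change above 0, with a median of 0.05. The 1 called was Cox18, which inserts an oxidase subunit into the membrane, from 10.9 ± 1.87 to 14.5 ± 1.21 (0.41, SE 0.106, limma adjusted p = 0.024, 6 of 6 mice). Its call was lost without mouse 3, 4 or 5 (adjusted p = 0.0784, 0.0956 and 0.101), without the block (0.113), with DESeq2 (0.131) and with reads thinned to the shallowest library (0.139). Of 19 tested regulators of respiratory chain genes and mitochondrial DNA, 1 rose and 0 fell. Only 10 of the 19 had a log2 change above 0, with a median of 0.00. Ppargc1a, a coactivator known for driving mitochondrial biogenesis, went from 64.1 ± 7.88 to 76.3 ± 11.1 (0.25, SE 0.059, adjusted p = 0.0142, 6 of 6 mice), and its call was lost without the block (0.359) and without mouse 6 (0.0595). Its relative Ppargc1b was at 0.50 (adjusted p = 0.0628).

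None of 14 genes of the tricarboxylic acid cycle passed, while 11 had a log2 change above 0, with a median of 0.11. The smallest p was that of Idh3a (0.15, adjusted p = 0.0676). Of 12 other inner membrane genes 2 rose and 0 fell, and 10 had a log2 change above 0, with a median of 0.06. Slc25a5, which exchanges ADP for the ATP that complex V makes, went from 117.2 ± 6.94 to 137.5 ± 5.41 (0.23, adjusted p = 0.00703, 6 of 6 mice), a call that held under each of the 19 alternatives run. Ucp2, of the uncoupling protein family, went from 9.35 ± 5.65 to 15.9 ± 8.20 (0.81, adjusted p = 0.000353, 5 of 6 mice), and its call was lost without the block (0.612).

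Promoters of the 3 called members are shown since these are the genes whose transcripts passed the test. RefSeq windows from 250 bases before to 50 after the start site (GRCm38.p6) were found for 63 of the 79 members and searched on both strands for 5 motifs. They were GCGCA followed after 1 base by GCGC (NRF1, a regulator of respiratory chain genes), CCGGAAG (ETS factors such as GABP), AAGATGGCG (YY1), TNAAGGTCA (ERR) and AGGTCA repeated after 4 bases (the direct repeat that thyroid hormone receptors are known to bind). TNAAGGTCA ends in the letters AGGTCA of the repeat. The windows are chr6:24527477-24527776 on the minus strand for Ndufa5, chrX:37191189-37191488 on the minus strand for Ndufa1 and chr9:57520982-57521281 on the plus strand for Cox5a. Capitals mark a match, which only Ndufa5 has, for NRF1. RefSeq gives a second start site for Ndufa5, with the window chr6:24527641-24527940, and the same match lies at base 61 of the window shown and at base 225 of the other.
Ndufa5 promoter window: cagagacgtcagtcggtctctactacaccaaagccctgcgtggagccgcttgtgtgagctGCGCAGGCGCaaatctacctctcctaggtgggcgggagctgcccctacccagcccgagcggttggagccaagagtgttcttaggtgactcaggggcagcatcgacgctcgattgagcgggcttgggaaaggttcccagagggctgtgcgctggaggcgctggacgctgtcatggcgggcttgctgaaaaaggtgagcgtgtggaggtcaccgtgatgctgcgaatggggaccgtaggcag
Ndufa1 promoter window: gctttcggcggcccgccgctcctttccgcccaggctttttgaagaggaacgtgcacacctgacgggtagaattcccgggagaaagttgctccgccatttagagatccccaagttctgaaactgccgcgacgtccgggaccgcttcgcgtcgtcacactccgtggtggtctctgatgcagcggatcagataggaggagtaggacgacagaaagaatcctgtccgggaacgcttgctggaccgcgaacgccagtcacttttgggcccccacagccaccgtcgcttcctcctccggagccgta
Cox5a promoter window: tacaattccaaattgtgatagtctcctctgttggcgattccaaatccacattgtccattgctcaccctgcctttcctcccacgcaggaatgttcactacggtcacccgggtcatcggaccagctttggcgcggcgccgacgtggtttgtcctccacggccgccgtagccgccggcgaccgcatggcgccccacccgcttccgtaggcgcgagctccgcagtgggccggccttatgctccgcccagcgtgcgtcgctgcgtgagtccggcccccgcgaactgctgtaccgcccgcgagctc

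The NRF1 letters were in the window of 16 of the 63 members (25.4%), of 5.19% of all 27025 genes with a window and of 11.6% of the genes tested with one. The ETS letters were also in 16 (25.4%, against 9.93% and 19.6%), those of YY1 in 7 (11.1%, against 1.64% and 3.57%) and those of ERR in 3 (4.76%, against 1.43% and 0.807%). The direct repeat was in 0 of the members' windows and in those of 4 genes of 27025, which says only that these letters are not in these windows. A match describes these letters and not binding. Members with the NRF1 letters had a median log2 change of 0.08 and those without 0.11. The sites of Sdha and Ndufb4, the members with 3 matches each, are shown beside the single one of Atp5k, since their log2 changes differ: 0.01 for Sdha, -0.06 for Ndufb4 and 0.26 for Atp5k. These 3 were chosen for that difference, and a relation between the number of matches and the change was not tested. The changes of other members were not ordered by the number of matches. Uqcrc1 and Cox6a1, with more than a single match each, were at 0.13 and 0.10, and Ndufs6, with a single match, was at 0.02. Each site shown is given with 10 bases on either side, on the minus strand, with the match in capitals.
Sdha site at chr13:74350319-74350348: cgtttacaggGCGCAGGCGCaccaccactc
Sdha site at chr13:74350276-74350305: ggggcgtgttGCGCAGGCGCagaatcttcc
Sdha site at chr13:74350231-74350260: gcgactcggtGCGCAAGCGCagtctgtcgc
Ndufb4 site at chr16:37654540-37654569: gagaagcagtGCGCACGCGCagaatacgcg
Ndufb4 site at chr16:37654428-37654457: ccttgtgcgcGCGCAGGCGCacttcctgag
Ndufb4 site at chr16:37654371-37654400: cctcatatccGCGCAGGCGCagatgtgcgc
Atp5k site at chr5:108434430-108434459: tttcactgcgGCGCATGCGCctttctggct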

How the data were processed

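For each of 12 cultures (6 mice, with and without T3), 500 ng of RNA went into a TruSeq library, a kit that does not mark strand, and single reads of 75 bases were produced, per the labels' protocols. The submitters' processing notes name CASAVA, FastQC, Bowtie, TopHat, HTSeq, edgeR and GRCm38, with no versions. The authors deposited a normalized signal: the single-library headers say counts, but the values are not whole, equal those of the table named for TMM, and have sums close to those of CPM in each library. They are read here as TMM-normalized CPM. In every library 100% of the values were multiples of a fixed step (tolerance 0.01 reads), the worth of 1 read, which gave back 5272092 to 10837895 reads on listed genes per library. Nothing names separate dams, so p-values measure the spread between these 6 fetuses.

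The main test was limma 3.58.1 (R 4.3.3) on log2(value + 0.5), with a trend, robust variances and mouse as the block, on 13663 genes kept by filterByExpr of edgeR 4.0.16 on the reads. Changes on this scale understate those of low genes. P-values were two-sided and Benjamini-Hochberg adjusted over all genes tested, with a threshold of 0.05. Every adjusted p is from this fit unless another setting is named, and intervals are 95% intervals of it. The script was tested on simulated data. There it called 4 of 50 genes given a log2 change of 0.2 and 31 of 50 given 0.4. It also called 12 genes given no change. The pairing comes from the series' design. The deviations of the 6 pairs from their group means correlated at 0.237 to 0.638, and each library's own partner was its best match. Alternatives were other pseudocounts (1 and 0.1), no filter, no block, edgeR, DESeq2 1.42.0, limma-voom, RLE and upper-quartile scaling, corrections for exon length and GC content, and leaving out each mouse. On the reads, edgeR called 465 genes higher and 310 lower. Thinning the reads to the shallowest library and both corrections together were chosen after seeing the data.

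Members and lists were chosen with earlier results of these data known. Named members are those past the threshold, the largest and smallest change of each complex, a set of core subunits and the paralog sets. Of the lists of genes around the respiratory chain, genes past the threshold were named or, where none passed, genes among the 2 smallest p-values. The genes mt-Co1 and Gpd2 were named outside this rule. Values of 1 member and 1 other gene are not reported here. Ndufb10, Ndufv3, Ndufa7, Ndufa10, Atp5j2, Ppargc1b, Cox7c, Atp5l, Atp5h, Atp5a1, Ndufb2, Ndufs6, Mki67, Mbp and Mog were named after their values were seen. Symbols were found for 14648 of 14801 gene IDs. Positions, overlaps and shared windows come from GENCODE release 21 (GRCm38) and promoter windows from RefSeq (GRCm38.p6).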

Additional observations from a re-analysis of the deposited data

Results flagged for a closer look

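A library lying far from the other 5 of its group was found in 4 of the 60 groups of 6 checked, and chance flags about 1 in 20 groups. Cox5a stood at 59.9 CPM in the no-T3 culture of mouse 1 and at 67.0 to 69.5 in the others. Cox6a2, the muscle form of an oxidase subunit, stood at 9.09 CPM in the no-T3 culture of mouse 4 and at 0.642 to 2.12 in the others. Cox7a2 stood at 142.8 CPM in the T3 culture of mouse 6 and at 123.0 to 127.9 in the others. The share of reads on the 79 members was 0.941% for mouse 4 without T3 and 0.810% to 0.842% for the other 5 mice without T3.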

How the results depend on the processing

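The median log2 change of all members lay between 0.06 and 0.13 over 19 alternatives, and the medians of the 5 complexes were above 0 in each of them. No member was called lower in any. The number of members called higher, 3 in the main test, was 1 with no replicate block, that is without the pairing by mouse, 5 with edgeR, 1 with DESeq2, 5 with limma-voom, 11 with the GC correction and 5 with the length and GC corrections together. It ran from 0 to 9 when 1 mouse was left out: 9 without mouse 1 and 0 without mouse 6. Among all genes the share called higher was 0.915% with no block, 3.4% with edgeR, 2.26% with DESeq2 and 3.37% with limma-voom. It was 4.93% with the GC correction, 4.82% with both corrections, 3.84% without mouse 1 and 2.4% without mouse 6. The cause of these differences was not tested. Ndufa5 was called in 18 of the 19 alternatives, Ndufa1 in 13 and Cox5a in 12. With the length and GC corrections together the medians of complexes I to V were 0.08, 0.03, 0.05, 0.03 and 0.06. Depth limits the lowest members: counting error alone gives a coefficient of variation of 21.8% for Ndufb4 (17 to 25 reads without T3) and 32.8% for Cox6a2, whose cultures without T3 varied by 123.9%, with mouse 4 apart from the rest.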

Other observations

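Usmg5, a small ATP synthase subunit outside the symbol rule, stood at 9.83 ± 1.32 CPM without T3 and 12.9 ± 3.25 with T3 (SD, n = 6; log2 change 0.34, limma adjusted p = 0.137), higher in 5 of 6 mice. Gpd2, the glycerol phosphate dehydrogenase of the inner membrane and a classical thyroid hormone target in liver, stood at 150.4 ± 18.1 and 157.7 ± 12.4 (0.07, interval -0.03 to 0.18, adjusted p = 0.520). The spread between cultures without T3 was smaller than counting error alone gives for 11 of the 79 members, Ndufa5 among them.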
